A study of Mus musculus with 6 samples.

Results

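Protein kinase A (PKA) is the cAMP-dependent kinase through which vasopressin regulates the kidney collecting duct, and the genes described here are those of its catalytic subunits, its regulatory subunits and its inhibitor peptides. They were chosen by name, as all probe sets annotated to exactly 1 of 9 genes: Prkaca, Prkacb, Prkar1a, Prkar1b, Prkar2a, Prkar2b, Pkia, Pkib and Pkig. Of these, 8 genes were measured, by 19 probe sets of the 28225 tested. Pkib is not analysed here, since the table used holds no probe set annotated to it alone. Genes not counted as measured below likewise lack such a probe set among its 28287, whether or not the array carries one. The cells were mpkCCD clone 11, a single clone of a mouse cortical collecting duct line, grown as a polarized layer on membrane supports until the resistance was at least 5 kohm per cm2. Of 6 cultures, 3 then received 0.1 nM dDAVP, an analog of vasopressin that acts on the V2 receptor, for 5 days, and 3 received vehicle for the same time. Total RNA of each culture was read on 1 Affymetrix Mouse Genome 430 2.0 array. The labels call the cultures biological replicates without naming passages or dates, and a p-value here speaks only for the spread among these 6 cultures.

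At rest a dimer of regulatory subunits holds a pair of catalytic subunits inactive. When the V2 receptor raises cAMP, the regulatory subunits bind it and the catalytic subunits are released to phosphorylate their targets, which in collecting duct principal cells include the water channel aquaporin 2 and the transcription factor CREB. Type I and type II regulatory subunits differ in their place in the cell, since type II subunits bind most A-kinase anchoring proteins more tightly. The inhibitor peptides (PKI) occupy the substrate site of free catalytic subunits and carry them out of the nucleus. In culture RNA, fewer cells that express a gene and less of its RNA per cell cannot be told apart.

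As a check of the cells, 11 of 13 listed principal cell markers were measured, among them Hsd11b2, Gata3, Tfcp2l1 and Avpr2. All 11 were above 3.56 log2 units, with mean signals from 3.74 (Elf5) to 10.98. That level, taken as background, is the 95th percentile of the mean signals of olfactory receptor probe sets. It rests on only 10 probe sets and is close to the highest of them. Of 39 markers of 6 other kidney or blood cell types, 11 were measured, 6 of them above that level, and none (0) passed the test used below. The brightest were Lrp2 of the proximal tubule (8.30) and Atp6v1b1 (7.31) and Aqp6 (6.55) of intercalated cells. These signals were higher than those of the principal cell marker Aqp3, at 5.07 in dDAVP cells and 4.91 in vehicle cells. Of the principal cell markers 3 rose, namely Aqp2, Avpr2 and Fxyd4. Aqp2, which encodes aquaporin 2, measured 10.85 ± 0.072 log2 units in dDAVP cells and 6.70 ± 0.042 in vehicle cells (SD, n = 3), a 17.8-fold rise (limma adjusted p = 1.66e-07). Fxyd4, a regulator of the sodium pump, was at 9.57 ± 0.080 in dDAVP cells and 8.89 ± 0.070 in vehicle cells, a 1.60-fold rise (limma adjusted p = 0.0116). That call was lost without dDAVP replicate 1 or 3 or vehicle replicate 1 or 3 (adjusted p from 0.0704 to 0.0880) and with the replicate number as a block (0.0955). As a sign of RNA quality, the gap between the 3' and 5' probe sets of beta-actin was 0.69 ± 0.021 in dDAVP arrays and 0.70 ± 0.017 in vehicle arrays. The hybridisation controls, transcripts added to the labelled material, were at 10.46 ± 0.066 in dDAVP arrays and 10.61 ± 0.080 in vehicle arrays (exact two-sided permutation p = 0.1, the smallest that 3 against 3 arrays allow).

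No PKA subunit or inhibitor gene passed the test for a change with dDAVP. The test was limma, with p-values adjusted over all probe sets by Benjamini-Hochberg and a threshold of 0.05. Of the 19 probe sets 0 passed in either direction, where 0.216% of all probe sets passed (0.188% higher with dDAVP and 0.0283% lower), so a count of 0 in 19 does not set these genes apart. The lowest adjusted p among them was 0.582 and the highest 0.985. At an unadjusted p below 0.05 there was 1 (Prkar1a), against 7.98% of all probe sets. The log2 changes, dDAVP minus vehicle, lay between -0.13 and 0.26, with a median of 0.03 against 0.0039 for all probe sets. The 95% interval of each of the 19 changes lay within 1.5-fold in either direction, and for 13 it lay within 1.25-fold. Each interval is for 1 probe set at a time, not adjusted for their number. The lowest bound of any was 0.772-fold (Prkacb) and the highest 1.49-fold (Prkar2b). Prkar2b was the gene whose bound depended on the arrays used and on the scaling. Its highest bound was 1.62-fold without dDAVP replicate 3, for example. With all arrays kept it was 1.56-fold after scaling to the hybridisation controls and 1.52-fold after scaling to the poly-A controls. The intervals of the other 7 genes lay within 1.5-fold under every alternative run.

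**Figure D1:**
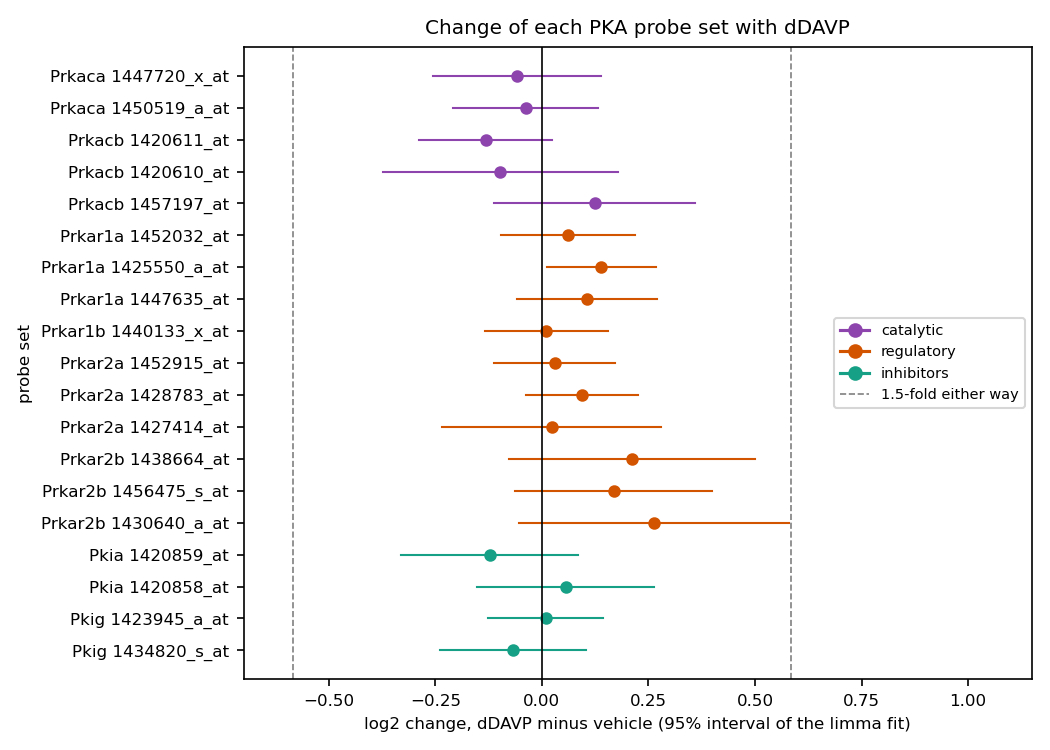
Log2 change (dDAVP minus vehicle, x axis) of each of the 19 probe sets (y axis), with the 95% interval of the limma fit as a line. Catalytic, regulatory and inhibitor genes are coloured apart, dashed lines mark 1.5-fold either way, and all 19 intervals lie between them.

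The signals ran from 3.00 to 11.04 log2 units as group means. Signals of different probe sets depend on the probes as well as on the RNA, so their order is an order of signals and not of transcript amounts. By the brightest probe set of each gene the order was Prkar1a (11.01 over all 6 arrays), Prkar2a (9.37), Prkaca (9.29), Prkacb (9.17), Pkig (8.98), Prkar2b (8.83), Pkia (6.91) and Prkar1b (4.43). It was the same by the means of the 3 dDAVP arrays and by those of the 3 vehicle arrays, though not in every single array. Prkar1a stood 1.64 log2 units above Prkar2a, and this order held in 6 of 6 arrays. The middle of the order was less firm. Prkar2a exceeded Prkaca in 4 of 6 arrays (mean gap 0.08), Prkaca exceeded Prkacb in 5 (0.12), Prkacb exceeded Pkig in 6 (0.19) and Pkig exceeded Prkar2b in 5 (0.15). Prkar2b then stood 1.92 above Pkia, and Pkia 2.48 above Prkar1b, each in 6 of 6 arrays. Among probe sets above background, those of 1 gene differed by 4.72 log2 units for Prkacb, 3.61 for Prkar2a and 0.60 for Prkar1a. When the probe sets above background were averaged for each gene, Prkar1a (10.71) was again first, followed by Prkaca (8.92) and Pkig (8.86), with Prkar2a (7.96) the fifth.

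**Figure D2:**
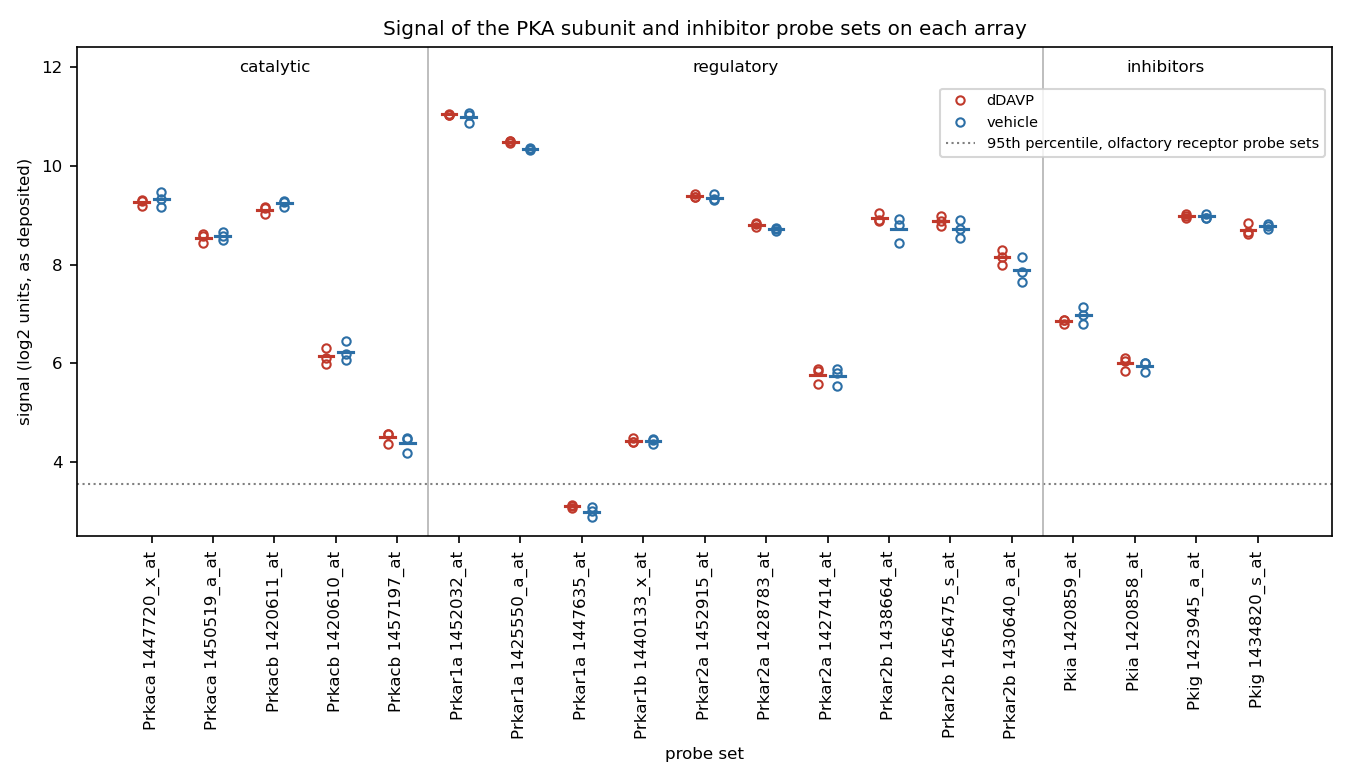
Signal (y axis, log2 units as deposited) of the 19 probe sets on each array (circles), dDAVP left of vehicle, with group means as bars. The brightest Prkar1a probe sets are near 11 and 10.4, while the Prkar1a probe set 1447635_at lies below the dotted background level and Prkar1b lies at 4.43.

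The catalytic subunits are the kinase itself. Prkaca encodes C-alpha, the form found in nearly all tissues, and Prkacb encodes C-beta, which has several first exons. The Prkaca probe set 1447720_x_at measured 9.28, 9.18 and 9.32 in the dDAVP arrays, against 9.46, 9.17 and 9.32 in the vehicle arrays, for a change of -0.06 ± 0.085 (SE). The suffix x marks probe sets some of whose probes also match other sequences. The second, 1450519_a_at, had 8.43, 8.58 and 8.62 in dDAVP arrays and 8.51, 8.65 and 8.58 in vehicle arrays, a change of -0.04 ± 0.073. The groups overlapped on both. The Prkacb probe set 1420611_at, the brightest of 3, had 9.14, 9.16 and 9.01 in dDAVP arrays against 9.17, 9.27 and 9.27 in vehicle arrays. All 3 dDAVP values lay below all 3 vehicle values, with the nearest pair only 9.16 and 9.17, and the change of -0.13 ± 0.067 did not pass (limma adjusted p = 0.697). The dimmer Prkacb probe sets went either way, at -0.10 ± 0.12 for 1420610_at and 0.12 ± 0.10 for 1457197_at, and their groups overlapped. In all, 4 of the 5 catalytic probe sets had a negative change and 1 a positive one, and without vehicle replicate 1 there were 3 positive. With arrays scaled to the hybridisation controls, which moved every change up by the same amount (the median of all probe sets to 0.15), all 5 were positive, and their median relative to that of all probe sets was -0.063 with and without the scaling. None passed the test (0).

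The regulatory subunits hold the kinase and set its response to cAMP. All 10 of their probe sets, from 4 genes, had a positive change with a median of 0.10, where 51.7% of all probe sets had a positive change. With arrays scaled to the hybridisation controls, to the poly-A controls or centred on their medians the count was 10, 8 and 9 of 10. None passed (0), with limma adjusted p between 0.582 and 0.984. Probe sets of 1 gene can read the same transcripts, and all 10 were read on the same arrays, so the 10 are not independent. The count of positive changes was 8 to 10 of 10 when arrays were left out in turn, and the values that turned negative were those of Prkar1b and of the dimmest Prkar2a probe set.

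Prkar1a encodes RI-alpha, the widely expressed type I subunit, whose loss in mouse cells leaves the catalytic subunits less restrained. Its probe set 1425550_a_at measured 10.50, 10.45 and 10.50 in dDAVP arrays, against 10.32, 10.37 and 10.35 in vehicle arrays. The groups did not overlap, the change was 0.14 ± 0.055 (95% interval 0.012 to 0.27), and it had the lowest adjusted p of the 19 (limma adjusted p = 0.582). The spread within groups was small here, with SDs of 0.027 in dDAVP arrays and 0.021 in vehicle arrays, and 1.69% of all probe sets had a smaller residual SD. The brightest Prkar1a probe set, 1452032_at, had 11.03, 11.05 and 11.03 in dDAVP arrays and 11.05, 10.86 and 11.02 in vehicle arrays. There vehicle replicate 2 alone was low, the groups overlapped, and the change was 0.06 ± 0.068. Without vehicle replicate 2 it was 0.0025, while that of 1425550_a_at was 0.15. The third, 1447635_at, lay under the background level, at 3.11 ± 0.032 in dDAVP arrays and 3.00 ± 0.11 in vehicle arrays.

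Prkar1b encodes RI-beta, known mainly from the nervous system. Its single probe set, 1440133_x_at, measured 4.40, 4.40 and 4.50 in dDAVP arrays and 4.36, 4.44 and 4.47 in vehicle arrays, a change of 0.011 ± 0.062. It lay above the background level of 3.56 and 20.8% of all probe sets had a lower signal. As for Prkaca, the suffix x marks probes that also match other sequences, so this dim signal may not come from Prkar1b alone.

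Prkar2a encodes RII-alpha, a widely expressed type II subunit. The brightest probe set, 1452915_at, had 9.36, 9.36 and 9.43 in dDAVP arrays and 9.31, 9.42 and 9.32 in vehicle arrays, a change of 0.03 ± 0.061. On 1428783_at the values were 8.82, 8.83 and 8.77 in dDAVP arrays and 8.68, 8.75 and 8.71 in vehicle arrays. The groups did not overlap there, and the change of 0.09 ± 0.057 did not pass (limma adjusted p = 0.760). The dim probe set 1427414_at had a change of 0.02 ± 0.11, which was negative without vehicle replicate 2 (-0.07).

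Prkar2b encodes RII-beta, best known from fat and brain. It had the largest changes of the 8 genes and the widest spread between vehicle arrays. Its brightest probe set, 1438664_at, measured 9.04, 8.90 and 8.87 in dDAVP arrays, against 8.93, 8.44 and 8.81 in vehicle arrays. On 1456475_s_at the values were 8.99, 8.88 and 8.79 in dDAVP arrays and 8.90, 8.54 and 8.71 in vehicle arrays. On 1430640_a_at they were 8.29, 8.16 and 7.98 in dDAVP arrays and 8.16, 7.64 and 7.84 in vehicle arrays. On all 3 probe sets dDAVP replicate 1 was the highest and vehicle replicate 2 the lowest of the 6 arrays, and vehicle replicate 1 lay inside the dDAVP range. The changes were 0.21 ± 0.12, 0.17 ± 0.10 and 0.26 ± 0.14, none past the test (limma adjusted p = 0.753, 0.754 and 0.710). Without vehicle replicate 2 they were 0.07, 0.08 and 0.14, and without vehicle replicate 1 they were 0.31, 0.26 and 0.40. Vehicle replicate 2 was the lowest vehicle array on 11 of the 19 probe sets, against 37.4% of all probe sets, and its part in these values was not tested beyond leaving it out.

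**Figure D3:**
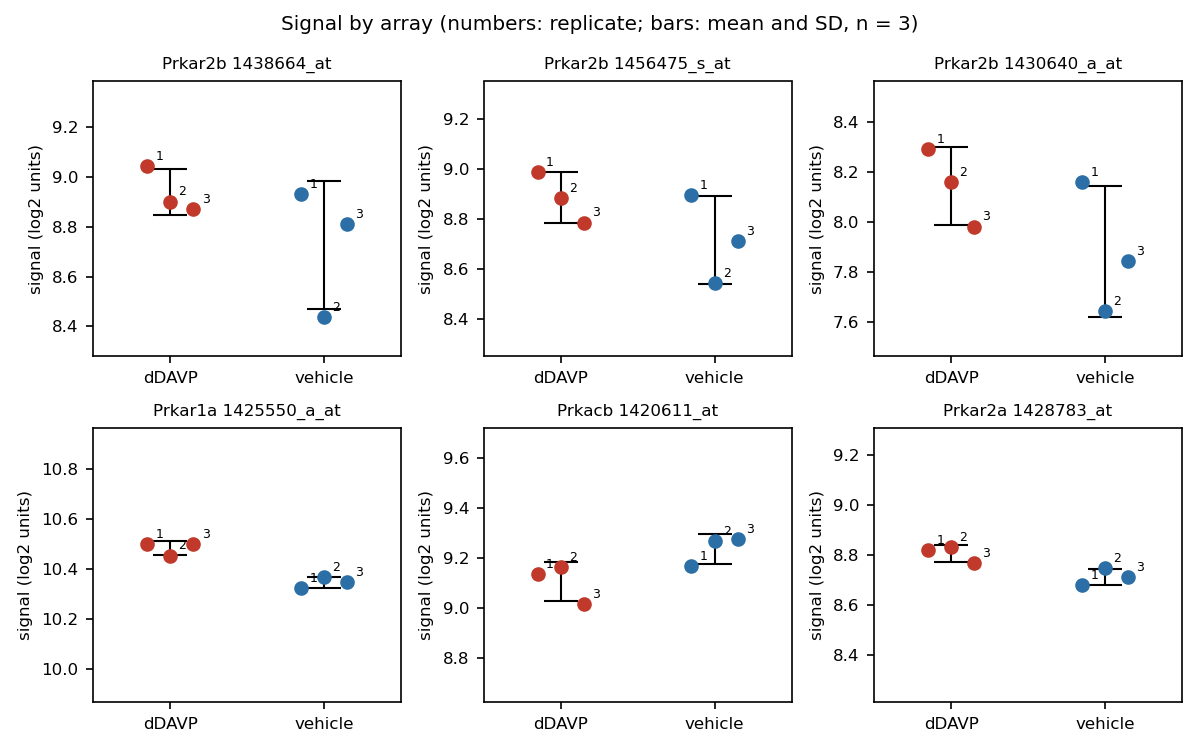
Signal (log2 units, y axes of equal height) by array for the 3 Prkar2b probe sets (top) and for the 3 probe sets whose groups did not overlap (bottom), dDAVP left of vehicle. Points carry replicate numbers and bars span the mean ± SD (n = 3), so that vehicle replicate 2 is seen lowest on each Prkar2b panel while the lower panels show narrow gaps.

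Across the 19, groups did not overlap on 3 probe sets (Prkar1a 1425550_a_at and Prkar2a 1428783_at higher with dDAVP, Prkacb 1420611_at lower), while 13.4% of all probe sets did not overlap and 8.07% were higher with dDAVP in that way. Whether probe sets of 1 gene moved apart was tested on the difference between them within each array, for the 15 pairs in 7 genes. The exact two-sided permutation p ranged from 0.2 to 1 and was 0.833 or higher after adjustment over the 15 pairs. The design cannot go below 0.1. The largest shift was for Prkacb, where 1420611_at stood 4.60 log2 units above 1457197_at in dDAVP arrays and 4.85 in vehicle arrays (exact p = 0.2).

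The inhibitor genes had changes between -0.12 and 0.06, none past the test (0), and their groups overlapped on all 4 probe sets. Pkig encodes PKI-gamma, a widely expressed form. Its probe set 1423945_a_at measured 9.01, 8.95 and 8.99 in dDAVP arrays and 8.95, 8.94 and 9.03 in vehicle arrays, a change of 0.0087 ± 0.058. Its second, 1434820_s_at, had a change of -0.07 ± 0.074. Pkia encodes PKI-alpha, the form first known from muscle. On 1420859_at it had 6.87, 6.87 and 6.80 in dDAVP arrays and 7.14, 6.80 and 6.98 in vehicle arrays, a change of -0.12 ± 0.090. On the dimmer 1420858_at the change was 0.06 ± 0.090. The signs differed between the Pkia probe sets, as they did for Pkig.

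The regulatory and catalytic signals were also set against each other within each array, a difference that no scaling of a whole array can move. The mean signal of the 10 regulatory probe sets minus that of the 5 catalytic ones was 0.43, 0.35 and 0.38 log2 units in dDAVP arrays and 0.31, 0.18 and 0.23 in vehicle arrays. All 3 dDAVP values were above all 3 vehicle values, by 0.15 on average. With 1 probe set per gene, the brightest, the difference was -0.75, -0.74 and -0.71 in dDAVP arrays and -0.90, -0.93 and -0.89 in vehicle arrays, and the groups did not overlap. Leaving out Prkar2b from the measure on all probe sets (7 regulatory and 5 catalytic) gave 0.08, 0.02 and 0.10 in dDAVP arrays and -0.04, -0.03 and -0.06 in vehicle arrays. This measure was chosen after the values and their signs were seen and was given no test. Groups that lie apart on it therefore add nothing to those signs, and its versions share probe sets.

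The upstream sequences of these genes are shown because CREB, a PKA target, binds the cAMP response element (CRE) TGACGTCA and its half-site TGACG (every full element contains the half-site). Each run is the 250 bases before an annotated transcript start, from RefSeq on GRCm38.p6, in lower case with full elements and half-sites on either strand in capitals. RefSeq starts were matched for 8 of the 9 genes (24 starts, several of them overlapping), and for 7 of the 8 measured. The full element was in 1 start of the 24, a Prkar1a start (chr11:109650699-109650948, plus strand), where it began 49 bases before the start, and in 1.55% of all 32851 starts. A half-site was in 7 of the 24, from 5 genes, and in 17.8% of all starts. Shown are that Prkar1a start, a start of the gene with the largest changes, one of a catalytic gene, and that of Aqp2. The first Prkar2b start (chr12:32061278-32061527, minus strand) had neither, and the first Prkaca start (chr8:83972728-83972977, plus strand) had a pair of half-sites. The Aqp2 start (chr15:99578806-99579055, plus strand) had 1 half-site and no full element in this window.
Prkar1a: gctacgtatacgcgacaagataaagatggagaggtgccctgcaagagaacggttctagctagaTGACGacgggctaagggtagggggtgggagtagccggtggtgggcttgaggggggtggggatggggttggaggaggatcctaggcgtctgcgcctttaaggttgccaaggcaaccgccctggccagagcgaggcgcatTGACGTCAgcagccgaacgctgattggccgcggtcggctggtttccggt
Prkar2b: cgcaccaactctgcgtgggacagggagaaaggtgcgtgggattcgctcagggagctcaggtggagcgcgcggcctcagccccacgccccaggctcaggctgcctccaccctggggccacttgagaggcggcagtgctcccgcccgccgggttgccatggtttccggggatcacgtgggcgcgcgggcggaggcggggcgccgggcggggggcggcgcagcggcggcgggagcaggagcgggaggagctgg
Prkaca: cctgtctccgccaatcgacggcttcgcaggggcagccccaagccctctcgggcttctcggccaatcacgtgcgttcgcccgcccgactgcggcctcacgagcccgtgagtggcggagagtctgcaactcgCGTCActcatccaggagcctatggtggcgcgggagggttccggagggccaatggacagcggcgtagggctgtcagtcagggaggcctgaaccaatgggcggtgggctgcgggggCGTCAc
Aqp2: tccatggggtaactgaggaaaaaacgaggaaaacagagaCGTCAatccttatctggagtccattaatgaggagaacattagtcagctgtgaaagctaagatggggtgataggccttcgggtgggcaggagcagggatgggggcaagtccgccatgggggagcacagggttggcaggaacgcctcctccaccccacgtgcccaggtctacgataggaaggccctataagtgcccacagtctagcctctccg
Prkar1a, with the full element, had changes of 0.06 to 0.14, and Prkar2b, with no half-site, 0.17 to 0.26, none of them past the test, while Aqp2, with 1 half-site, rose 17.8-fold. A match is a description of letters and says nothing of binding in these cells.

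Other genes that make, break down, anchor or answer cAMP were counted from 7 lists, by the brightest probe set of each gene, with 102 of 142 listed entries measured. By that rule 0.291% of all genes passed. Of the 8 PKA genes 0 passed. Their changes were positive for 5 and negative for 3, with a median of 0.0096. Among 16 genes of the cAMP production list, 1 rose and none fell (0). That list also holds genes that do not raise cAMP, namely Gnai1, Gnai2, Gnai3 and Avpr1a. The gene that rose was Avpr2, the V2 receptor, with 9.31, 9.25 and 9.20 in dDAVP arrays and 8.65, 8.77 and 8.78 in vehicle arrays (1.44-fold, limma adjusted p = 0.0271). The groups did not overlap, but the call was lost whichever array was left out (adjusted p from 0.0851 without vehicle replicate 2 to 0.155 without dDAVP replicate 2), with the replicate number as a block (0.157) and with scaling to the poly-A controls (0.0897). Among 9 cAMP phosphodiesterases 1 rose and none fell (0): Pde4b, with 6.34, 6.12 and 6.19 in dDAVP arrays and 4.61, 4.32 and 4.27 in vehicle arrays (3.51-fold, limma adjusted p = 9.74e-04). No gene passed (0) among 26 genes listed as A-kinase anchoring proteins (median 0.05), which include Smarcad1, not known as an anchoring protein. Nor did any (0) of 10 genes of a mixed list (-0.02), mostly enzymes and proteins that act on PKA but also holding Prkx and Rpn2. The same held (0) for 4 other cAMP effectors (-0.02). It also held (0) for 18 genes of CREB and related factors, their coactivators, and the kinases and phosphatases that act on these (0.02). None passed (0) among 19 other kinases of the AGC family to which PKA belongs (0.04). At an unadjusted p below 0.05, these 5 lists held 4, 0, 0, 1 and 2 genes. The cAMP production list held 3 of 16 and the cAMP breakdown list 2 of 9. Of all probe sets 7.98% passed at that level, a share of probe sets and not of genes. The lists of cAMP production and breakdown had medians of -0.011 and 0.011.

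**Figure D4:**
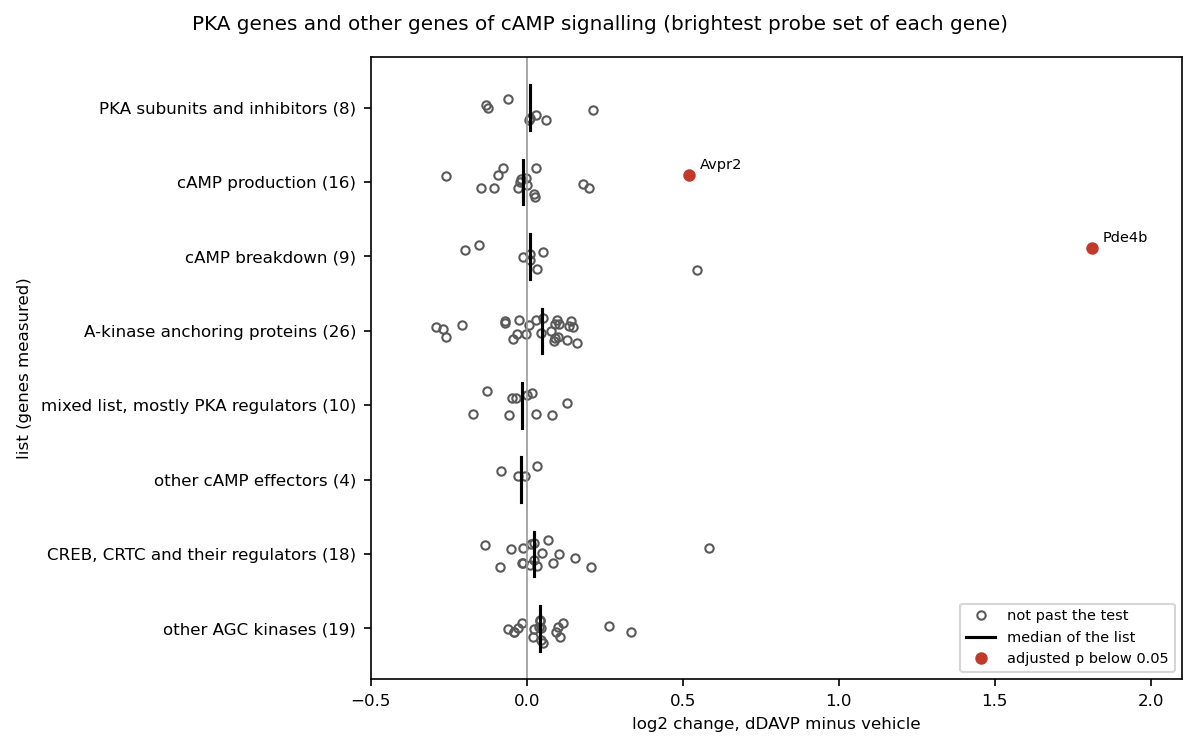
Log2 change (dDAVP minus vehicle, x axis) of each gene by its brightest probe set, in the PKA genes and in 7 other lists (y axis, number of genes measured in brackets). Filled points passed the test and are Avpr2 and Pde4b, black bars are list medians, and the 8 PKA genes lie between -0.13 and 0.21.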

How the data were processed

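Per the labels, biotin-labelled cRNA from Trizol-extracted RNA was hybridised. The authors deposited log2 signals, 1 per probe set and array (2.15 to 14.1, no missing value, array medians within 0.043). Among the tools in the submitters' processing notes are RMA, MAS5 and Expression Console 1.1, and which of these made the values was not given in the sources used here. Summary over probes can compress the changes of dim probe sets. The number of arrays limits the precision.

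Gene names came from GEO's platform annotation (23097 with 1 symbol, 611 with several and 4517 with none, with 23026 of the first matched to RefSeq by Entrez ID). The 62 control probe sets were left out of tests. limma 3.58.1 under R 4.3.3 (lmFit, eBayes) compared 3 dDAVP with 3 vehicle arrays over 28225 probe sets, with Benjamini-Hochberg adjustment and a threshold of 0.05. Standard errors and 95% intervals are those of this fit. Exact permutation tests used scipy 1.17.1. The fit was tested on simulated data first. There it recovered 14.8% of log2 changes of 0.3 and 80.4% of those of 0.5, so most changes of 0.3 were missed.

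All members were named whatever their values, and in the other lists of cAMP genes those called by any probe set. Fxyd4, Elf5, Lrp2, Atp6v1b1, Aqp6 and Aqp3 were named after their values were seen, and a few further genes are named without values. The members, lists and tests were chosen with earlier results of these data known. Alternatives were a threshold of 0.01, a 1.5-fold minimum, quantile normalization, median centring, 2 filters on dim probe sets, a robust or trended prior, a block for replicate number, each array left out in turn, genes averaged over their probe sets or called by any of them, and scaling to hybridisation or poly-A controls.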

Additional observations from a re-analysis of the deposited data

How the results depend on the processing

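The count of called PKA probe sets was 0 in every alternative run, with the lowest adjusted p at 0.294 (trended prior) among the other settings that keep all arrays, 0.457 when an array was left out and 0.0912 after scaling to the hybridisation controls. That scaling moved the median of all probe sets to 0.15 log2 units, and relative to it the regulatory median stayed 0.096 higher and the catalytic median was at -0.063. It turned positive the values of Prkaca (0.089), Prkacb (0.016) and Pkia (0.025). Poly-A scaling turned those of Pkig (-0.015) and Prkar1b (-0.013) negative, as did median centring (-0.0035 and -0.0017). The mean of its probe sets gave Pkig -0.029. Scaling for the counts of calls was chosen after the data were seen. Leaving out 1 array turned 12 of 114 probe set values, whose ranges were -0.0067 to 0.036 (Pkig 1423945_a_at), -0.021 to 0.032 (Prkar1b), -0.074 to 0.11 (Prkar2a 1427414_at), -0.076 to 0.016 and -0.13 to 0.013 (Prkaca 1450519_a_at and 1447720_x_at), -0.19 to 0.011 (Prkacb 1420610_at) and -0.0019 to 0.14 (Pkia 1420858_at). Of all 28225 probe sets 61 passed. The count was 95 above the median level, 146 with a trended prior, 282 with hybridisation scaling, 23 at a threshold of 0.01, and 22 to 46 with an array left out (25, 22 and 30 without dDAVP replicates 1, 2 and 3, and 26, 46 and 26 without vehicle replicates 1, 2 and 3). With the replicate block it was 24 and no PKA probe set passed (0, lowest adjusted p = 0.545). Deviations of same-numbered arrays correlated at 0.20, 0.046 and -0.052, and those of differently numbered arrays at -0.21 to 0.17. These values cannot show whether same-numbered cultures were handled together, which the labels do not state. With the block the SE fell for some PKA probe sets, as from 0.11 to 0.060 for Prkar2a 1427414_at. For others it rose, as from 0.055 to 0.061 for Prkar1a 1425550_a_at. Counting any called probe set changed no list of cAMP genes. Signal over background limits Prkar1a 1447635_at, which lay below it.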
